A study of Homo sapiens with 18 samples.

Results

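MicroRNA genes were followed on 18 Affymetrix Human Gene 2.0 ST arrays, which measure RNA per annotated transcript, here called a feature. Of 1071 microRNA genes with a named feature, 123 were taken up. They were chosen by their measured level. The mean log2 value of the gene's feature had to exceed the 75th percentile of all 53617 features' means in at least 1 of the 6 groups of arrays. Symbols of host transcripts and MIR21 were left out by the same rule, and 1 feature stood for each gene. The cells were breast cancer lines. SKBR3, a line with amplified HER2, received an antisense oligonucleotide (ASO) to LINC01269, a long non-coding RNA, or a control ASO. The triple-negative line MDA-MB-231 received an ASO to AL078604.2, also a long non-coding RNA, or a control ASO, and so did MDA-MB-468, another triple-negative line. Every group held 3 arrays, and cells were harvested 48 h after transfection with 15 nM of a GapmeR, a DNA-centred ASO that directs cleavage of its target, so the controls carried an ASO too. The labels do not say how many ASO sequences each target had. The labels do not say that replicates were separate cultures, so p-values measure only the spread between these arrays, which may be technical.

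MicroRNA genes are transcribed into a long primary RNA, which the nuclease DROSHA with its partner DGCR8 cuts to a hairpin. XPO5 exports the hairpin, DICER1 trims it, and one strand guides an Argonaute protein to messenger RNAs that pair with the seed, a short stretch near its 5′ end. In breast cancer, let-7 microRNAs are known as repressors of growth genes, the miR-200 family and miR-205 as keepers of the epithelial state, and miR-221 and miR-222 as microRNAs of basal-like lines. A feature on this array reports RNA overlapping the gene, and primary transcript, hairpin and mature strand cannot be told apart. In bulk RNA, fewer cells carrying an RNA and less of it per cell cannot be told apart either.

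The mature strands shown here are those of members with the largest differences or highest levels described below, taken from RefSeq on GRCh38.p14. Capitals mark the seed, bases 2 to 8 from the 5′ end. RefSeq held 158 mature sequences for 113 of the 123 genes.
hsa-miR-130b-3p: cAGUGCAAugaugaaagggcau
hsa-miR-185-5p: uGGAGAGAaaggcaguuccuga
hsa-miR-877-5p: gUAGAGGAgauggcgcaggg
hsa-miR-4653-5p: uCUCUGAGcaaggcuuaacacc
hsa-miR-622: aCAGUCUGcugagguuggagc
hsa-miR-222-3p: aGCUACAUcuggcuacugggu
hsa-miR-24-3p: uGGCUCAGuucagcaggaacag
hsa-miR-4481: gGAGUGGGcuggugguu
hsa-miR-196b-5p: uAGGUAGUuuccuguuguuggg
hsa-miR-4737: aUGCGAGGaugcugacagug
hsa-miR-574-5p: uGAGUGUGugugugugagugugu
hsa-miR-205-5p: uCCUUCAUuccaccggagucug

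Members that share a seed are expected to pair with overlapping sets of messenger RNAs, and 16 members shared 8 seeds. The let-7 seed GAGGUAG was carried by MIRLET7D, MIRLET7E and MIR98, and the seed AUUGCAC by MIR25 and MIR92B.
hsa-let-7d-5p: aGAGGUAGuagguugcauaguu
hsa-let-7e-5p: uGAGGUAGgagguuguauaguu
hsa-miR-98-5p: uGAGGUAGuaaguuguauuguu
hsa-miR-25-3p: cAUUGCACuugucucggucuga
hsa-miR-92b-3p: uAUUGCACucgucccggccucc
MIR181B1 and MIR181D shared a seed, as did MIR1301 and MIR5047, and MIR3125 and MIR3916. The remaining shared seeds lay within the MIR3689 genes, near-identical copies whose features may report each other's RNA and are therefore uncertain.

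The 123 genes were 11.5% of the microRNA genes with a feature, whereas 48.7% of the 13813 other named genes and 28.1% of all features passed the same level rule. Of the 123, 74 were above the threshold in all 6 groups, 12 in only 1 group and 12 in 2 groups. The threshold lay between 6.22 log2 in the SKBR3 controls and 6.96 log2 in the MDA-MB-231 anti-AL078604.2 arrays. Just inside it stood MIR4786 by 0.01, MIR23B by 0.03 and MIR3935 by 0.03 log2. Just outside stood MIR106B, MIR3689E and MIR4296, short of it by 0.01, 0.01 and 0.02 log2. These levels chose the genes and are given without a test.

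MIR4737 had the highest level, with a mean percentile of 96.6 among all features over the 6 groups. MIR574, which lies in FAM114A1, followed at 95.5 and MIR3143 at 94.5. Then came MIR3907 at 92.5, MIR3689A at 91.6, MIR3619 at 91.5 and MIR205 at 90.8. MIR205, whose microRNA is known as epithelial, stood between 90.2 and 91.5 in all 6 groups, whichever the line. MIR4533, MIR5047, MIR1538, MIR663B and MIR1238 stood between 90.7 and 89.7. Of these 12, MIR3143 varied most between groups, with 96.2 in the SKBR3 controls, 95.5 in the MDA-MB-231 controls and 90.9 in the MDA-MB-468 controls. Throughout these 12, the groups' percentiles of neighbouring genes overlapped, so their order is not read as a difference in level. Percentiles compare features with different probes, and no gene length or probe affinity enters them.

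**Figure D1:**
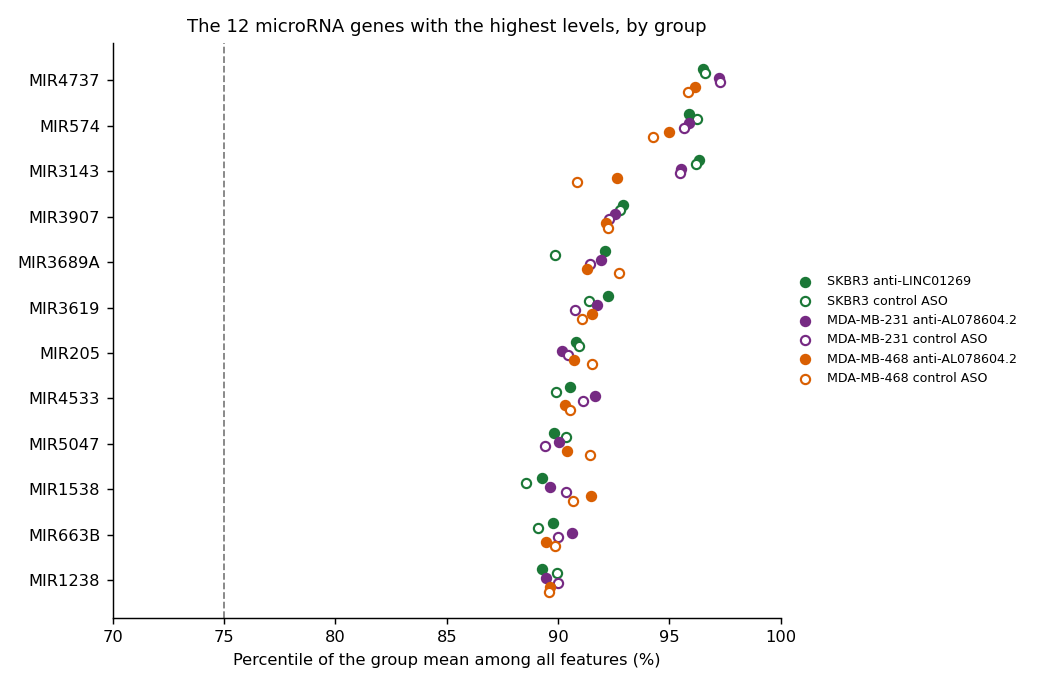
Percentile of the group mean among all 53617 features (horizontal axis, in percent) for the 12 microRNA genes with the highest mean percentile (rows); filled points are anti-lncRNA ASO groups and open points control ASO groups, each the mean of 3 arrays. The dashed line is the 75th percentile that chose the genes, and MIR3143 in the MDA-MB-468 arrays lies furthest from its other groups.

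Level was higher where the hairpin held more G and C. The hairpins of the members had a median G+C content of 61.6% (109 with a RefSeq hairpin), against 46.7% for 774 other microRNA genes, while median hairpin length was 82 and 83 bases. In 4 classes of about equal size, from the lowest to the highest G+C content, 1.81%, 4.98%, 10.4% and 32.4% of genes were members. The median level percentile in the same order was 6.74, 18.5, 40.7 and 64.5. Across the 883 genes, level and G+C content had a Pearson r of 0.654 and a Spearman rho of 0.673. These are descriptions across genes that share arrays and probe chemistry, and the part of probe base composition in the levels was not tested. MIR3143, with 41.3% G+C, and MIR4653, with 44.6%, are members of low G+C content.

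**Figure D2:**
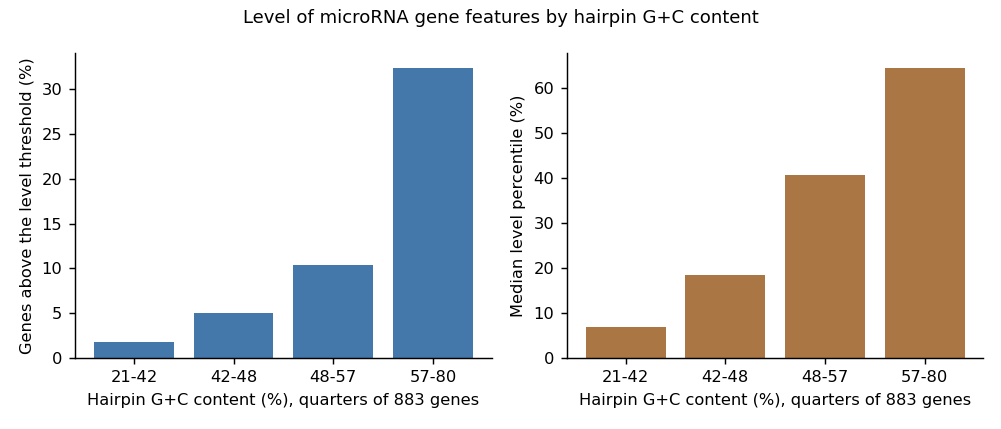
Share of microRNA genes above the level threshold (left, percent) and median level percentile (right, percent) in 4 classes of hairpin G+C content (horizontal axis, percent) over 883 genes. Both bars are lowest in the first class (1.81% and 6.74) and highest in the last (32.4% and 64.5).

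By position, chromosome 9 held 11 members among its 52 microRNA genes, chromosome 2 held 10 among 69 and chromosome 19 held 10 among 79. Chromosome 16 held 8 among 26. The members on chromosome 9 include the MIR3689 copies, and position was not tested. Of 109 members with a known strand, 70 (64.2%) lay inside a RefSeq gene on the same strand, against 55.9% of the other microRNA genes. Among members above the threshold in all 6 groups, 35 of 65 (53.8%) did. Of the members, 26 had more than 1 feature. In 3 of them, MIR130B, MIR4521 and MIR2909, another feature of the gene had a mean percentile below 50.

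Median log2 values per array lay at 4.56 to 4.63 for SKBR3, 5.41 to 5.43 for MDA-MB-231 and 5.21 to 5.24 for MDA-MB-468. The lines were therefore compared only after quantile normalization over all 18 arrays, and line and processing run cannot be told apart. Marker genes did not settle the line labels, which some of them followed and several did not. The epithelial gene EPCAM stood at percentiles of 98.9, 99.2 and 99.3 in the SKBR3, MDA-MB-231 and MDA-MB-468 controls. In the same order, ESRP1, also epithelial, stood at 98.1, 98.1 and 98.0, and the mesenchymal gene VIM at 76.3, 76.7 and 82.4. GRB7, taken as a marker of SKBR3, stood at 79.2, 81.3 and 78.9, and AXL, taken for MDA-MB-231, at 80.9, 83.2 and 60.3. Keratin genes also taken for SKBR3 were highest there: KRT8 (77.7, 74.13 and 75.73), KRT18 (98.7, 98.47 and 96.99) and KRT19 (98.27, 97.98 and 98.04). ZEB1 (43.77, 45.9 and 33.29) and CD44 (97.24, 98.34 and 98.01), taken for MDA-MB-231, were highest there. EGFR, taken for MDA-MB-468, was highest in SKBR3 (98.97, 98.23 and 98.67). Of 2 keratin genes taken for MDA-MB-468, KRT5 was highest there (69.8, 73.6 and 85.8), whereas KRT14 was not (72.2, 89.2 and 79.4). ERBB2 and CDH1 were not analysed here, and of the leukocyte, fibroblast and endothelial markers with a named feature LYZ (21.4 to 24.5) and DCN (4.27 to 6.33) were low, whereas PECAM1 (32.5 to 43.2) and VWF (42.9 to 52.1) stood higher; their part in the line differences was not tested. Neither LINC01269 nor AL078604.2 has a named feature, so the knockdown itself was not analysed here.

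Between the lines, a few microRNA genes differed by far more than the spread between arrays. On quantile-normalized values of the control arrays, limma called 39 of the 123 in the SKBR3 arrays against the mean of the other lines, 20 higher and 19 lower. That is 31.7% of members, against 35.1% of all features tested (16.9% higher and 18.1% lower). With each array centred on its median instead, the same comparison called 24 higher and 10 lower. In the MDA-MB-231 arrays 30 members were called, 18 higher and 12 lower, or 24.4% against 26.3% of all features (13.6% higher and 12.7% lower). In the MDA-MB-468 arrays 30 were called as well, 12 higher and 18 lower, again 24.4%, against 31.2% of all features (15.7% higher and 15.4% lower). The members' shares are near or below those of all features. Without MDA-MB-231 control replicate 2 or 3, 18 or 16 members (14.6% or 13.0%) were called for MDA-MB-231, against 17.2% or 18.7% of all features. Without MDA-MB-468 control replicate 3, 17 of the 123 were called for MDA-MB-468, against 22.1% of all features. Among the 74 genes above the threshold in every group, where the level rule touches the line comparison least, 19, 15 and 17 were called in the same order. Of the 123, 55 (44.7%) were called in at least 1 line, against 53.5% of all features. Called in all 3 were 7 (5.69%), against 4.56% of all features: MIR130B, MIR185, MIR3143, MIR4521, MIR590, MIR622 and MIR877. Each line was set against the mean of the others on the same control arrays, so 1 divergent line can give calls in all 3. MIR130B, for example, averaged 10.56 log2 in the SKBR3, 6.99 in the MDA-MB-231 and 6.84 in the MDA-MB-468 controls.

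MIR130B, whose mature strand belongs to the miR-130 seed family, read 10.58, 10.57 and 10.55 log2 in the SKBR3 controls, against 6.70, 7.19 and 7.07 in the MDA-MB-231 controls and 6.88, 6.71 and 6.92 in the MDA-MB-468 controls. The SKBR3 arrays lay apart from all others, with a difference of 3.65 ± 0.192 on the log2 scale (limma adjusted p = 2.02e-09; errors of differences here are standard errors, with 3 arrays in each group). MIR185 read 9.90, 9.84 and 9.97 in the SKBR3 controls, against 7.66, 7.79 and 7.60 in the MDA-MB-231 controls and 7.50, 7.52 and 7.59 in the MDA-MB-468 controls. Its difference was 2.30 ± 0.078 log2 (limma adjusted p = 1.37e-11).

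Both genes lie on chromosome 22, 1.62 Mb apart: MIR185 at chr22:20033139-20033220 and MIR130B at chr22:21653304-21653385 (GRCh38.p14, plus strand). The genes around them, looked up after these values were seen, did not share the difference throughout. TANGO2, which contains MIR185, differed by -0.13 log2 in the SKBR3 controls against the other lines (limma adjusted p = 0.344), and DGCR8, the DROSHA partner nearby, by 0.08 (0.436). RANBP1, a Ran-binding protein gene, was lower by -0.68 (1.87e-05). Near MIR130B, the endoplasmic reticulum gene SDF2L1 was higher by 1.26 (1.47e-09) and PPIL2 by 0.25 (0.0154), whereas YDJC differed by -0.25 (0.165). The second feature of MIR130B stood at percentiles of 44.9 in the SKBR3 controls, 39.1 in the MDA-MB-231 controls and 36.5 in the MDA-MB-468 controls. It was too low to be tested, so the difference rests on 1 of the gene's 2 features.

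MIR4653, which lies in the adaptor gene AP1S1, read 8.01, 7.84 and 7.81 log2 in the SKBR3 controls, against 7.30, 7.34 and 7.27 in the MDA-MB-231 controls and 6.31, 6.49 and 6.25 in the MDA-MB-468 controls. The lines did not overlap. It was higher in the SKBR3 arrays by 1.06 ± 0.106 (limma adjusted p = 1.7e-06) and lower in the MDA-MB-468 arrays by -1.24 ± 0.106 (5.81e-07). Its second feature gave 0.99 and -1.04.

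MIR3143 read 8.68, 8.57 and 8.65 in the MDA-MB-468 controls, against 9.90, 9.96 and 9.96 in the SKBR3 controls and 9.86, 9.63 and 9.60 in the MDA-MB-231 controls. The MDA-MB-468 arrays stood lowest, with a difference of -1.19 ± 0.0729 log2 against the other lines (limma adjusted p = 2.2e-08). MIR622 likewise stood lowest in the MDA-MB-468 controls, with 7.56, 7.65 and 7.78, against 8.65, 8.51 and 8.65 in the SKBR3 controls and 8.42, 8.40 and 8.39 in the MDA-MB-231 controls. Its difference was -0.84 ± 0.0719 (5.81e-07).

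MIR877, a microRNA made from an intron of ABCF1, read 7.56, 7.23 and 7.47 in the SKBR3 controls, against 6.37, 6.41 and 6.80 in the MDA-MB-231 controls and 6.27, 6.73 and 6.67 in the MDA-MB-468 controls. It was higher in the SKBR3 arrays by 0.88 ± 0.13 log2 (limma adjusted p = 8.11e-05), and this gene passed the level threshold in only the SKBR3 groups, so the rule touches that difference. Its other differing feature gave 0.98. MIR3143 was also higher in the SKBR3 arrays, by 0.77, and MIR622 by 0.57. Both differences are against a mean that holds the low MDA-MB-468 values. Control means in SKBR3 and MDA-MB-231 were 9.94 and 9.70 for MIR3143, and 8.61 and 8.40 for MIR622. On the lower side stood MIR3135B, MIR4710, MIR2392, MIR1910 and MIR665, with differences of -0.49 to -0.45. The call of MIR665 was lost under 6 alternatives (adjusted p up to 0.12) and that of MIR3135B without SKBR3 control replicate 3 (0.102). MIR665, MIR3135B and MIR2392 were below the level threshold in both SKBR3 groups, so the rule favoured their being lower there.

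**Figure D3:**
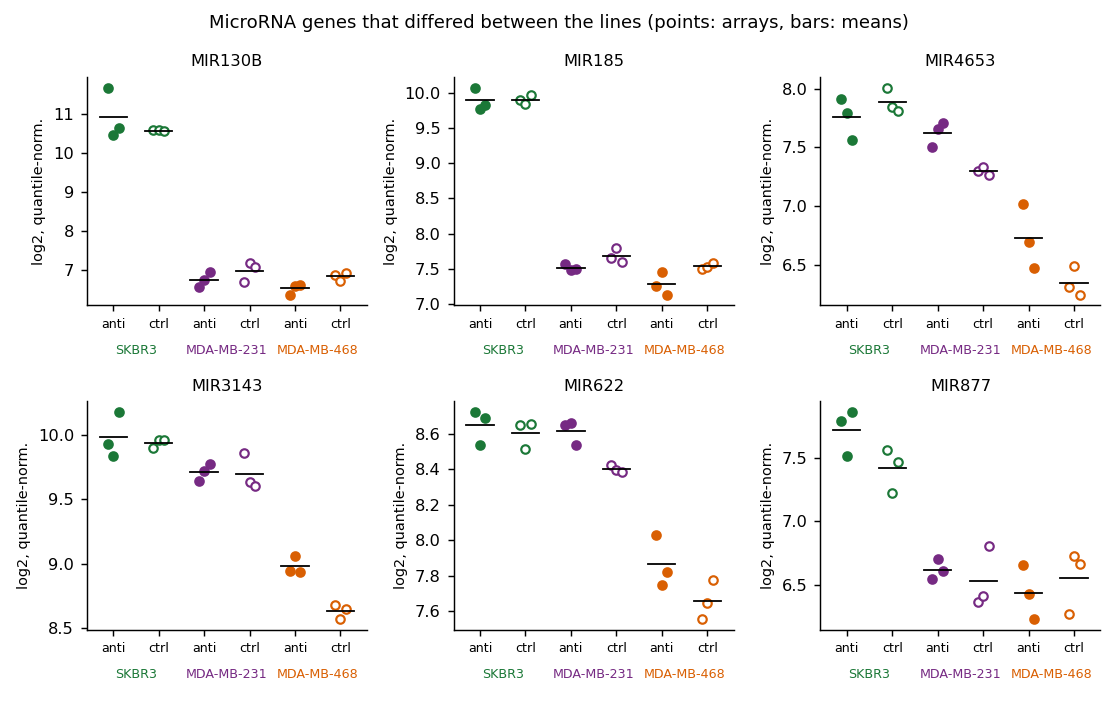
Quantile-normalized log2 values (vertical axis) of 6 microRNA genes in all 18 arrays; filled points are anti-lncRNA ASO arrays (anti), open points control ASO arrays (ctrl), bars group means, and colours the labelled line. MIR130B and MIR185 stand apart in the arrays labelled SKBR3, and MIR4653, MIR3143 and MIR622 stand lowest in those labelled MDA-MB-468.

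In the MDA-MB-231 controls, MIR25, of the miR-106b cluster in MCM7, was higher than in the other lines by 0.50 ± 0.103 log2 (limma adjusted p = 0.0021). It read 7.04, 7.18 and 7.15 there, against 6.69, 6.62 and 6.66 in the SKBR3 controls and 6.84, 6.58 and 6.35 in the MDA-MB-468 controls. MCM7 itself, a replication helicase gene, differed by -0.02 (0.916). MIR4521 and MIR3667 were higher by 0.50 and 0.48. MIR4521 averaged 8.16 in the MDA-MB-231, 8.03 in the SKBR3 and 7.30 in the MDA-MB-468 controls. Its difference therefore comes mostly from low MDA-MB-468 values. MIR3621 and MIR502 differed by 0.44 and 0.43, but passed the level threshold only in MDA-MB-231 groups, so the rule touches those differences. MIR130B (-1.71) and MIR185 (-1.04) were lower against a mean that holds their high SKBR3 values. MIR4292, MIR571 and MIR590 were also lower, by -0.73, -0.68 and -0.58, none of these 3 above the level threshold in an MDA-MB-231 group. Without MDA-MB-231 control replicate 2, MIR3667 (0.39, limma adjusted p = 0.0749) and MIR4292 (-0.53, 0.116) lost their calls, and without replicate 3 MIR4292 did too (-0.55, 0.106). The calls of MIR3621 and MIR502 did not hold under every alternative either (limma adjusted p up to 0.086 and 0.108). A second feature of MIR4521 stood at or below a percentile of 14.6 in every group.

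In the MDA-MB-468 controls, MIR570 was higher by 0.73 ± 0.159 log2 (limma adjusted p = 0.00252), with 8.81, 8.98 and 8.96, against 8.09, 8.42 and 7.92 in the SKBR3 controls and 8.12, 8.19 and 8.40 in the MDA-MB-231 controls. The let-7 gene MIRLET7D differed by 0.59 ± 0.173, with 6.40, 6.82 and 6.95, against 6.41, 5.93 and 6.17 in the SKBR3 controls and 6.30, 5.80 and 6.20 in the MDA-MB-231 controls. Its lowest array lay among the others, and its call did not hold under every alternative (limma adjusted p up to 0.101). MIR3135B differed by 0.61. Both genes passed the level threshold only in the MDA-MB-468 controls, so these differences describe what the rule chose. MIR571 (0.55) and MIR3689F (0.50) were called higher too, MIR571 having passed in both MDA-MB-468 groups and the SKBR3 controls. MIR3689F lost its call when any of 6 single control arrays was left out (adjusted p up to 0.124). MIR130B (-1.94) and MIR185 (-1.26) were lower, again against a mean that holds their high SKBR3 values. MIR4653 (-1.24), MIR3143 (-1.19) and MIR622 (-0.84) were lower too.

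The next comparisons ask how the same genes differed after each ASO. After the anti-LINC01269 ASO, none of the 123 members was called by limma in the SKBR3 arrays, where 0% of 29855 features were called. At an unadjusted p under 0.05, 8 members were higher and 4 lower, against 5.37% and 3.79% of all features. The 2 groups did not overlap for 12 members (9.76%), against 11.5% of all features. The members' median difference was 0.04 log2, against 0.01 for all features, and 72 members (58.5%) lay above 0, against 54.0% of all features. Differences of 1.5-fold or more were seen in 2 members (1.63%), MIR222 and MIR24-2, against 1.92% of all features. MIR222, MIR23B, MIR4522 and MIR1587 are members only through their level in the anti-LINC01269 arrays. The level rule favoured their being higher there, and those of their differences given for these arrays are descriptions.

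MIR222, which with MIR221 forms a cluster on chromosome X, read 8.14, 4.88 and 6.84 log2 in the anti-LINC01269 arrays, against 5.17, 4.75 and 4.84 in the control arrays. Anti-LINC01269 replicates 1 and 3 lay above every control and replicate 2 among them, so that the groups overlapped. The difference was 1.70 ± 0.503 log2, with an SD of 1.64 over the anti-LINC01269 arrays and 0.22 over the controls (n = 3 each). MIR221, not itself a member, read 5.99, 5.31 and 5.77, against 4.93, 4.81 and 5.04 in the controls, without overlap. Its difference was 0.76 ± 0.18 (limma adjusted p = 0.313).

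MIR24-2, in the MIR23A, MIR27A and MIR24-2 cluster on chromosome 19, read 7.28, 6.28 and 6.87 in the anti-LINC01269 arrays, against 6.15, 6.08 and 6.20 in the controls. All 3 anti-LINC01269 arrays lay above the controls, by 0.66 ± 0.178 log2 on average (limma adjusted p = 0.344). MIR27A, its neighbour, read 6.75, 5.08 and 6.30, against 5.04, 5.06 and 5.20 in the controls. MIR23A read 6.20, 4.60 and 5.32, against 4.53, 4.0 and 4.92. In the related cluster on chromosome 9, the member MIR23B read 6.71, 5.93 and 6.11, against 5.48, 5.90 and 6.0 in the controls, and MIR27B read 6.50, 5.85 and 6.15, against 5.72, 5.76 and 5.25. MIR24-1 averaged 2.07 log2 in the anti-LINC01269 arrays and 1.99 in the controls and was too low to be tested.

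Over these 7 tested genes of both families, anti-LINC01269 replicate 2 was the lowest of its group for 7 and replicate 1 the highest for 7. For 3 of the 7 every anti-LINC01269 array lay above every control, against 7.28% of all features. For 7 replicates 1 and 3 did, a count for which no share over all features was computed. MIR222 and MIR23B were taken up only through the anti-LINC01269 arrays, so these counts are descriptions. Without anti-LINC01269 replicate 2, limma called 3 members (2.44%), against 0.775% of all features (232 of 29930). They were MIR24-2 (0.93 log2, adjusted p = 0.00526), MIR4481 (0.52, 0.0415) and MIR222 (2.57), the last of which the level rule took up only through the anti-LINC01269 arrays. No other omission of a SKBR3 array called any of the 123.

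**Figure D4:**
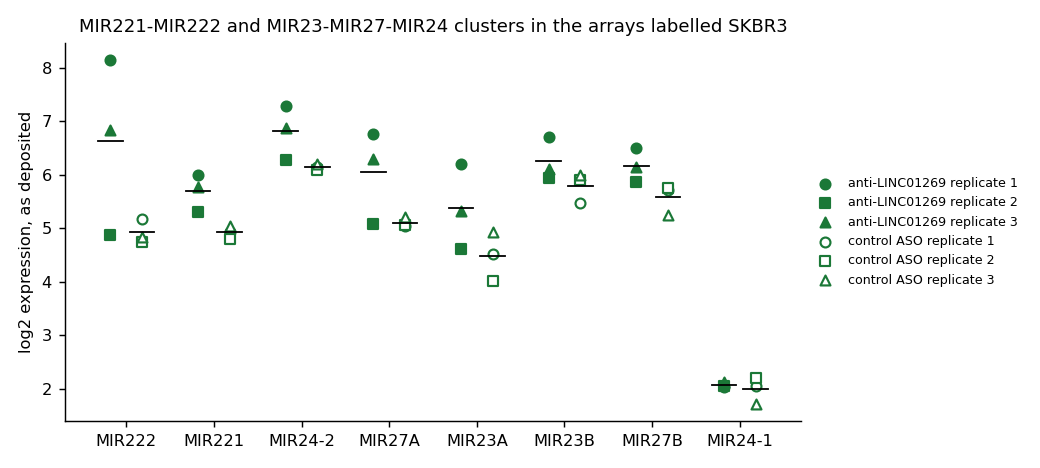
Deposited log2 values (vertical axis) of the MIR221 and MIR222 cluster and the MIR23, MIR27 and MIR24 genes in the 6 arrays labelled SKBR3; filled symbols are anti-LINC01269 arrays, open symbols control ASO arrays, shapes the replicate number and bars group means. Anti-LINC01269 replicate 2 (squares) lies below the other 2 for every gene but MIR24-1.

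MIR4481 was the member with the smallest p, and read 7.12, 7.15 and 7.26 in the anti-LINC01269 arrays, against 6.51, 6.61 and 6.88 in the controls. The groups did not overlap (0.51 ± 0.0976 log2, limma adjusted p = 0.239). MIR486-1, whose microRNA is abundant in erythroid cells, read 7.10, 7.0 and 6.92, against 6.57, 6.27 and 6.65 in the controls (0.51 ± 0.113, limma adjusted p = 0.313). A differing feature of the same gene gave -0.04 ± 0.107, so its 2 measurements did not share the difference. MIR4689 differed by 0.35 (limma adjusted p = 0.379) and MIR4522 by 0.41, both without overlap. On the lower side stood MIR326, with 5.94, 6.29 and 6.28 in the anti-LINC01269 arrays, against 6.82, 6.53 and 6.66 in the controls (-0.50 ± 0.141, limma adjusted p = 0.38). Its other feature gave -0.34. MIR3650, MIR3159, MIR571 and MIR1299 differed by -0.29, -0.38, -0.31 and -0.43.

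After the anti-AL078604.2 ASO in the MDA-MB-231 arrays, limma again called 0 of the 123, against 0.171% of all features (51 of 29855). At an unadjusted p under 0.05, 6 members were higher and 3 lower, against 4.9% and 4.45% of all features. The groups did not overlap for 18 members (14.6%), against 17.2% of all features. The median difference was 0.03 log2 for the members and 0.01 for all features, 70 members (56.9%) lay above 0, against 53.0% of all features, and none reached 1.5-fold. With array weights in the fit, limma called 6 members (4.88%), against 8.08% of all features, 4 higher and 2 lower: MIR622, MIR4525, MIR4653 and MIR1587, and MIR185 and MIR665.

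MIR25 read 7.80, 7.73 and 7.73 log2 in the anti-AL078604.2 arrays, against 7.34, 7.49 and 7.44 in the MDA-MB-231 controls. Every anti-AL078604.2 array lay above every control, by 0.33 ± 0.12 on average (limma adjusted p = 0.328). Its host MCM7 differed by 0.25 (limma adjusted p = 0.51), and its cluster neighbour MIR106B by 0.03. MIR4653 read 7.84, 7.94 and 8.02, against 7.60, 7.64 and 7.57 in the controls (0.33 ± 0.121, limma adjusted p = 0.345), and MIR622 read 8.97, 8.97 and 8.87, against 8.73, 8.72 and 8.70 (0.22 ± 0.08, limma adjusted p = 0.333). Both stood apart from their controls. MIR1587 differed by 0.52, although its other feature gave 0.04, and MIR4525 by 0.47. The lowest p among lower members belonged to MIR4748, with 6.67, 6.95 and 6.62 in the anti-AL078604.2 arrays, against 7.28, 7.07 and 6.96 in the controls (-0.35 ± 0.123, limma adjusted p = 0.311). MIR4440 differed by -0.31 and its host, the histone deacetylase gene HDAC4, by -0.62 (limma adjusted p = 0.117). MIR4481, MIR185 and MIR4780 differed by -0.22, -0.17 and -0.24.

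In the MDA-MB-468 arrays the same ASO also gave 0 calls among the 123, against 0.0067% of all features (2 of 29855). At an unadjusted p under 0.05, 8 members were higher and 3 lower, against 5.25% and 5.24% of all features. The groups did not overlap for 22 members (17.9%), against 16.9% of all features. The median difference was -0.02 log2 for the members and -0.0035 for all features, 52 members (42.3%) lay above 0, against 49.1% of all features, and none reached 1.5-fold. With array weights in the fit, limma called 17 of the 123, 9 higher and 8 lower, against 17.4% of all features.

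MIR3143, whose level was lower in MDA-MB-468 than in the other lines, read 9.09, 9.22 and 9.11 log2 in the anti-AL078604.2 arrays, against 8.83, 8.72 and 8.79 in the MDA-MB-468 controls. The groups stood apart, by 0.36 ± 0.0844 (limma adjusted p = 0.183). MIR4653 read 7.15, 6.82 and 6.60, against 6.43, 6.61 and 6.37 in the controls, with 1 array overlapping (0.39 ± 0.121, limma adjusted p = 0.293). MIR196B, which lies among the HOXA genes, read 6.84, 6.51 and 6.70, against 6.33, 6.26 and 6.0 (0.49 ± 0.153, limma adjusted p = 0.297), without overlap. MIR1251 differed by 0.24 and MIR622 by 0.20. MIR4756 read 6.65, 7.0 and 6.77, against 7.07, 7.45 and 7.24 in the controls (-0.45 ± 0.146, limma adjusted p = 0.307). MIR185 read 7.39, 7.57 and 7.27, against 7.63, 7.66 and 7.72 (-0.26 ± 0.0918, limma adjusted p = 0.332), and both genes stood below their controls in every array. TANGO2, which contains MIR185, differed by -0.29 (limma adjusted p = 0.395). MIR5047, MIR1281 and MIR486-1 differed by -0.20, -0.27 and -0.23.

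The 2 lines given the anti-AL078604.2 ASO have separate controls, so their members can be set side by side. The differences had the same sign in both lines for 67 of 123 members (54.5%), against 59.0% of all features, with a Pearson r of 0.222 across members and 0.326 across all features. These are descriptions across genes that share arrays. Members with an unadjusted p under 0.05 in the same direction in both lines were MIR622 (0.22 in MDA-MB-231 and 0.20 in MDA-MB-468) and MIR4653 (0.33 and 0.39), and the second feature of MIR4653 gave 0.33 and 0.44. Neither gene passed adjustment in either line, and the share of all features meeting the same rule in both lines was not computed. The difference between the lines' effects, tested directly, called 0 members by limma, against 0% of all features. At an unadjusted p under 0.05, 2 members were higher and 2 lower in it, against 2.36% and 1.81% of all features. They were MIR5047 (0.30 ± 0.118), MIR4756 (0.44 ± 0.206), MIR3143 (-0.34 ± 0.119) and MIR3178 (-0.55 ± 0.25), each as the MDA-MB-231 effect minus the MDA-MB-468 effect and each with adjusted p = 0.998.

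**Figure D5:**
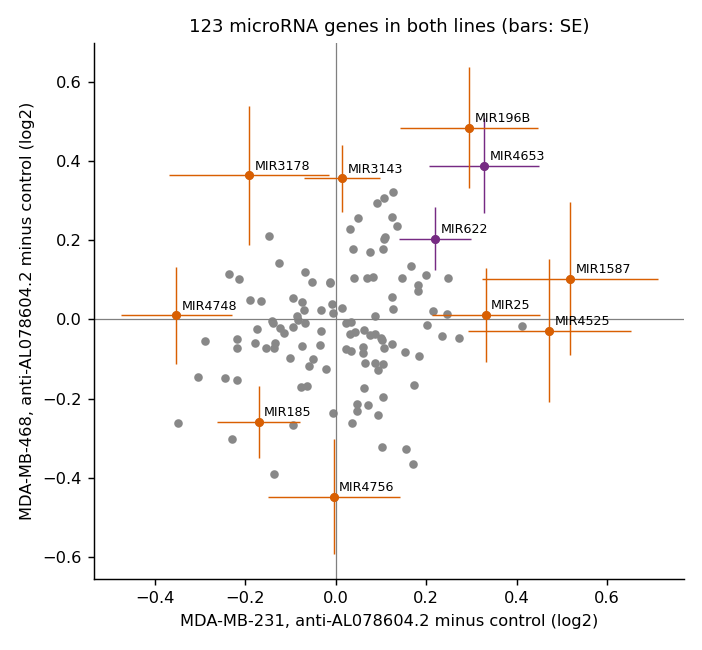
Log2 difference, anti-AL078604.2 minus control ASO, of the 123 microRNA genes in the arrays labelled MDA-MB-231 (horizontal) and MDA-MB-468 (vertical); bars are standard errors of the labelled genes. MIR622 and MIR4653 (purple) had an unadjusted p under 0.05 in both lines, and none of the 123 passed adjustment in either. The share of all features with such a p in both lines was not computed.

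By family, no list of microRNA genes held a call in any ASO comparison. The miR-23/27/24 list had a median of 0.66 log2 over 5 tested genes after the anti-LINC01269 ASO. At an unadjusted p under 0.05, 5 of them were higher, against 5.37% of all features. Its medians were 0.17 and -0.04 after the anti-AL078604.2 ASO in MDA-MB-231 and MDA-MB-468. The list of MIR221 and MIR222 had 1.23, 0.20 and 0.20 in the same order, over 2 tested genes. MIR23B and MIR222 are members only through their level in the anti-LINC01269 arrays, so the values of these lists there are descriptions. The let-7 list, with 8 tested genes, had 0.10, -0.05 and 0.01, and its members MIR98, MIRLET7D and MIRLET7E differed by 0.24, -0.08 and 0.08 after the anti-LINC01269 ASO. The miR-200 family, with 4 tested genes and no member, had 0.03, -0.18 and -0.10. MIR205 differed by -0.0031, -0.06 and -0.17. All features had medians of 0.01, 0.01 and -0.0035.

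Members in one cluster did not always stand together in level. Clusters of microRNA genes within 10 kb on one strand numbered 16 with a member, and they held 21 members and 28 other microRNA genes. Only 3 held more than 1 member: the MIR3689 genes on chromosome 9 (4 of 5), MIR665 and MIR127 on chromosome 14, and MIR99B and MIRLET7E on chromosome 19. Of the members inside a gene, 36 had a host that was tested. Member and host effects had the same sign in 24, 24 and 18 of the 36 after the anti-LINC01269 ASO, and after the anti-AL078604.2 ASO in MDA-MB-231 and MDA-MB-468. Their Pearson r across pairs was 0.252, 0.431 and 0.227, as a description, since pairs share arrays. For the line differences it was -0.04 in SKBR3, 0.09 in MDA-MB-231 and 0.05 in MDA-MB-468.

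Of 50 genes that make, load or degrade microRNAs, 34 had a named feature and 32 were tested. None was called in any ASO comparison. At an unadjusted p under 0.05, 0 were higher and 2 lower after the anti-LINC01269 ASO, 2 and 3 after the anti-AL078604.2 ASO in MDA-MB-231, and 2 and 6 in MDA-MB-468. Of all features, 5.37% and 3.79%, 4.9% and 4.45%, and 5.25% and 5.24% did so. In the MDA-MB-468 arrays, SMAD3, whose product binds the nuclear processing complex, differed by -0.49 ± 0.129 log2 (limma adjusted p = 0.228), the hairpin exporter gene XPO5 by -0.23 ± 0.0638 (0.248) and SND1, an effector complex nuclease gene, by -0.42 ± 0.127 (0.282). SND1 differed by -0.33 in MDA-MB-231 and -0.03 after the anti-LINC01269 ASO. PARN, a deadenylase gene, differed by -0.37 after the anti-LINC01269 ASO, -0.41 in MDA-MB-231 and -0.32 in MDA-MB-468. DGCR8 differed by -0.22, 0.07 and 0.02 in the same order. Between the lines, 18 of the 32 were called in the SKBR3 arrays (12 higher and 6 lower), 12 in the MDA-MB-231 arrays (4 and 8) and 13 in the MDA-MB-468 arrays (7 and 6), against 35.1%, 26.3% and 31.2% of all features. Among them, the exonuclease gene XRN2 was lower in the SKBR3 controls by -0.49 and the helicase gene DDX6 higher by 0.33.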

How the data were processed

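The 18 arrays were summarized with Transcriptome Analysis Console, as the submitters' processing notes record; version, normalization and genome build are not given in the sources used here. Deposited values, between 0.41 and 13.84, were taken as log2 expression because of that range, no source naming the scale. Platform annotation named 16098 features, of 14884 genes. Of several features of a microRNA gene, the one with the highest mean was used. Features above a group's median in at least 1 group (29855) were tested with limma 3.58.1 in R 4.3.3, in a group-means model of all 18 arrays with an intensity trend (12 residual and 4.33 prior degrees of freedom), two-sided, with Benjamini-Hochberg adjustment over all of them and a threshold of 0.05. All 123 members passed, which their choice by level favours. Named were the members with the smallest p (5 per direction and ASO comparison), the 5 largest called differences per line and direction, the 12 highest levels, the 6 genes next to the threshold, members of the lists and up to 4 genes per processing list. Members and lists were chosen with earlier results of these data known. The procedure was tested on simulated data. Precision is limited by the 3 arrays per group. Alternatives were array weights, other filters and scalings, a replicate block and the omission of single arrays.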

Additional observations from a re-analysis of the deposited data

How the results depend on the processing

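The number of members depended on the level rule, with 400 genes at the 50th percentile, 17 at the 90th and 74 when all 6 groups had to pass. Quantile-normalized means gave the same 123. Array weights called 6 of the 123 in the MDA-MB-231 comparison and 17 in the MDA-MB-468 comparison, with 2413 and 5199 features called in all, against 51 and 2; the cause was not tested. Omitting single arrays gave 0 to 3 calls in the SKBR3 comparison, the 3 without anti-LINC01269 replicate 2, and 0 in the MDA-MB-231 and MDA-MB-468 comparisons. The line comparisons then called 27 to 39 in SKBR3, 16 to 30 in MDA-MB-231 (18 and 16 without MDA-MB-231 control replicates 2 and 3) and 17 to 29 in MDA-MB-468 (17 without MDA-MB-468 control replicate 3). Omission leaves fewer samples. Centring arrays on their median changed the SKBR3 line split to 24 higher and 10 lower. With the replicate number as a block, 0 members were called in each ASO comparison and in their difference, and 0, 1 and 0 features in all; same-numbered arrays did not deviate together (r from -0.124 to 0.101), so the numbers were not taken as pairs. Over all features, omitting an array gave 0 to 232 calls in SKBR3, 0 to 535 in MDA-MB-231 and 0 to 12 in MDA-MB-468. In MDA-MB-231, 28 features were called without the filter, 26 without the trend and 11 from the line's own arrays. Of the members named for an ASO comparison or a line, none changed direction under the alternatives run; those named only for level or in a family list were not followed, and MIR205 and MIRLET7D differed by less than their standard errors in SKBR3. Named line calls were lost in 21 instances, 20 of them on omitting an array.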
